A study of Mus musculus with 12 samples.

Results

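Neurogranin (Nrgn), growth-associated protein 43 (Gap43), Purkinje cell protein 4 (Pcp4), its relative Pcp4l1, and 2 of the genes that encode calmodulin itself, Calm2 and Calm3, were followed through the cortex and cerebellum of SCA1 knock-in (SCA1 KI) and wild-type (WT) mice. These 6 genes were chosen by symbol out of 15759 entries of the expression table, and they were selected on their normalized counts in the same 4 groups of region and genotype that are described here. Their levels and log2 fold changes (LFCs) are therefore given as a description, with standard errors and no p-value. Where members are counted as called beside the share of all genes, nothing is read from the count. All 6 passed the filter on low values (mean over all libraries of 10 normalized counts or more), as did 15369 genes in all.

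The SCA1 KI mice carried 1 Atxn1 allele with 154 glutamine codons and 1 allele with 2 (Atxn1 154Q/2Q), expressed from the gene's own regulatory sequence in every cell type that uses it, and the controls were WT littermates. All mice were on a C57BL/6J background and were 12 weeks old. Whole cortex and whole cerebellum were dissected, and poly-adenylated RNA was sequenced in 3 libraries per group, 12 in all. The sample labels list males, whereas the study's methods describe both sexes combined.

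Calmodulin is the small calcium sensor that switches many neuronal kinases, phosphatases and channels on when calcium rises. Nrgn, Gap43, Pcp4 and Pcp4l1 carry an IQ motif, a stretch that in Nrgn, Gap43 and Pcp4 holds calmodulin at low calcium, whereas in full-length Pcp4l1 a neighbouring stretch is known to hinder that binding; in Nrgn and Gap43 a serine of this motif is a target of protein kinase C, which releases calmodulin when it phosphorylates it. Nrgn sits mainly in dendrites and spines of forebrain neurons, Gap43 in growing and presynaptic axons, and Pcp4 in Purkinje cells and several classes of forebrain neurons. Calm2 and Calm3 are separate genes for the same protein.

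The IQ motif is what joins these 4 proteins, and its coding stretches in 3 of them are shown for that reason. Each line gives 57 bases of the coding strand of GRCm38, 5′ to 3′, with the 33 bases of the motif core in capitals.
Nrgn: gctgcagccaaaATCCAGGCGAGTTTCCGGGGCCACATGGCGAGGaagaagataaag
Pcp4: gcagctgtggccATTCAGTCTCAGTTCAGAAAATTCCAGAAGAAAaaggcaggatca
Pcp4l1: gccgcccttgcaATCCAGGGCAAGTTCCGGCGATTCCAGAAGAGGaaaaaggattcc
The stretches lie at chr9:37546049-37546105 (minus strand) for Nrgn, chr16:96525452-96525508 (plus strand) for Pcp4 and chr1:171174392-171174448 (minus strand) for Pcp4l1, each within 1 coding exon. Translated, the cores of Pcp4 and Pcp4l1 shared 7 of 11 residues, those of Nrgn and Pcp4l1 shared 5, and those of Nrgn and Pcp4 shared 4. In every pair 3 of the shared residues, an isoleucine, a glutamine and an arginine, were fixed in advance by the motif searched for. The proteins are 78 (Nrgn), 227 (Gap43), 62 (Pcp4) and 68 (Pcp4l1) residues long, and the motif, searched as isoleucine and glutamine, 3 residues, arginine, 4 residues, lysine or arginine, occurred in 183 of 14280 translated genes (1.28%).

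Calm2 and Calm3 are told apart only by their bases, since both encode the same 149 residues. The first calcium-binding loop shows this. Each line gives the 36 bases of its 12 codons, with capitals at the 7 positions where the genes differ.
Calm2: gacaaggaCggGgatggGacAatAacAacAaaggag
Calm3: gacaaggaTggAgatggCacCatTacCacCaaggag
They were read from chr17:87435873-87435908 (Calm2, minus strand) and chr7:16917667-16917702 (Calm3, minus strand). Over the whole coding sequence, they shared 82.6% of bases. No 75-base window, the length of a read, of one of these transcripts occurred in the other. Windows shared with other genes made up 3.89% of the Calm2 transcript (the gene models Gm7308 and Gm15720) and 1.26% of the Calm3 transcript (Gm5881). For Pcp4 they made up 30.2%, all shared with Igsf5, whose annotated exons overlap those of Pcp4 on the same strand, so the Pcp4 level depends on how such reads were counted. None was shared for Nrgn, Gap43 or Pcp4l1.

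Reads on genes numbered 29520855 to 51311309 per library. In the deposited table, libraries B, C and D are WT cortex, A, E and F SCA1 KI cortex, 2, 4 and 6 WT cerebellum, and 1, 3 and 5 SCA1 KI cerebellum. The regions were told apart by their defining markers, Emx1 of cortical excitatory neurons (524 to 1143 normalized counts in the cortex, 0 to 5.8 in the cerebellum) and Gabra6 of granule cells (20711 to 32163 in the cerebellum, 0 to 42.1 in the cortex). A few libraries stood apart. SCA1 KI cortex library F had more Slc6a4 (152 normalized counts against 1.0 to 8.9 in the other cortical libraries) and Calb2 (2000 against 340 to 624), genes of serotonergic neurons and of certain interneurons and other neurons. WT cortex library B had more Drd2 (378 against 18.8 to 222) and Adora2a (698 against 77.9 to 305), genes of striatal neurons, and the highest summed oligodendrocyte markers of the cortex (132941 against 79221 to 97415). Without B, the cortical LFC was -0.73 for Nrgn, 0.50 for Gap43, -0.63 for Pcp4, 0.049 for Pcp4l1, -0.15 for Calm2 and -0.29 for Calm3, to be set beside the values with all libraries below. WT cerebellum library 2 had the highest summed oligodendrocyte markers of the cerebellum (259028 against 148143 to 192367) and the lowest summed granule cell markers (141091 against 192609 to 201802). Atxn1 itself, whose RNA a knock-in allele is not meant to remove, had 7370 ± 815 normalized counts (SD, n = 3) in WT and 6040 ± 1337 in SCA1 KI cortex, and 3679 ± 54.9 and 3889 ± 221 in the cerebellum.

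Nrgn was the member with the largest differences, between regions and between genotypes. In WT cortex it had 76063, 76042 and 83271 normalized counts (libraries B, C and D), and in SCA1 KI cortex 58465, 47828 and 39867 (A, E and F). The highest SCA1 KI library was still below the lowest WT library, and the SCA1 KI libraries were spread more widely (coefficient of variation 19.2% against 5.31%). The LFC was -0.70 with a standard error (SE) of 0.18, 1.63-fold lower in SCA1 KI. It was -0.84 without library A and -0.57 without library F, the lowest SCA1 KI library. Whole tissue was sequenced, so fewer cells of a type and less RNA per cell cannot be told apart in any of these values.

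In the cerebellum, Nrgn had 2687, 1777 and 2480 normalized counts in WT (libraries 2, 4 and 6) and 155, 96.8 and 118 in SCA1 KI (1, 3 and 5). The groups were far apart, with 1455 to 2943 reads per WT library against 122 to 184 reads per SCA1 KI library. The LFC was -4.22 (SE 0.18), an 18.7-fold lower level, and it stayed between -4.40 and -4.06 on leaving out libraries. The LFC in the cortex was higher by 3.52 (SE 0.26) than that in the cerebellum. Between the WT groups Nrgn was 34.4-fold higher in the cortex (LFC 5.10, SE 0.18). The cerebellar libraries come from an earlier experiment of the same laboratory, so region and experiment cannot be told apart in this and every other regional difference.

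**Figure D1:**
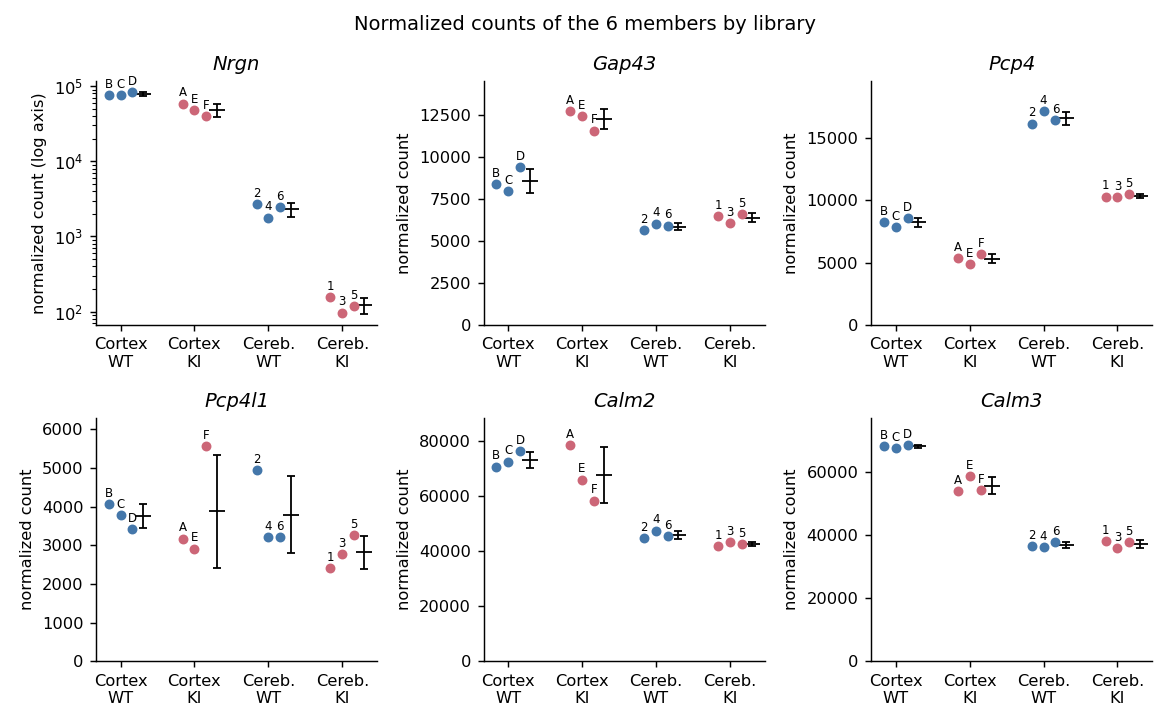
Normalized counts of the 6 genes in each library (points, with the name of the library), with the mean and SD of each group in black beside the points, for WT (blue) and SCA1 KI (red); the vertical axis of Nrgn is logarithmic and all others start at 0. Nrgn lies between 39867 and 83271 in the cortex, between 1777 and 2687 in WT cerebellum and between 96.8 and 155 in SCA1 KI cerebellum, whereas Pcp4 is lower in SCA1 KI in both regions and Gap43 is higher in SCA1 KI cortex.

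Several markers listed for midbrain, brainstem, thalamus and forebrain interneurons were lower in SCA1 KI cerebellum, as Nrgn was. Of 11 midbrain and brainstem markers, 10 were tested, and 5 were called lower in SCA1 KI cerebellum and 0 higher. Over all tested genes, 4.44% were called lower in SCA1 KI cerebellum and 0.917% higher. The counts of 0 given beside the members for midbrain and brainstem, thalamus, cortical excitatory neuron and Purkinje cell markers were also 0 by edgeR, by DESeq2 and at an unadjusted limma p under 0.05. The sum of the listed genes was 8598, 4524 and 5378 normalized counts in WT libraries 2, 4 and 6 and 1795 to 2412 in SCA1 KI. The WT libraries stood in the order 2, 6, 4 both for this sum and for Nrgn. They stood in that order too for the summed forebrain interneuron, Golgi cell, oligodendrocyte and microglia markers, but not for the other lists. The order is thus not particular to midbrain and brainstem markers. With 3 libraries few orders are possible, and the share of all genes in this order was not counted. Nothing is therefore read from the order here or below. Slc17a6, a vesicular glutamate transporter, made up most of the midbrain and brainstem sum (2878 to 6803 in WT, 982 to 1310 in SCA1 KI). It is not particular to that tissue, with 1267 to 2376 in the cortical libraries. Gata3 (48.9 to 157 in WT) and Shox2 (120 to 210 in WT) were at 2.5 to 12.6 and 0 to 9.7 in SCA1 KI. Of 6 thalamus markers 5 were in the table, of which 3 were called lower and 0 higher: Tcf7l2 had 1480 to 2404 in WT and 210 to 249 in SCA1 KI, and Lhx9 418 to 727 and 32.3 to 46.5. Their sum ran the other way (16869 to 19785 in WT, 23776 to 24974 in SCA1 KI), and most of it was Calb2, which is also used by cerebellar granule cells. Of 8 forebrain interneuron markers, 3 were called lower, with Sst at 368 to 864 in WT and 41.2 to 72.6 in SCA1 KI and Vip at 81.5 to 130 and 0 to 2.5. Their sum was 37872 to 40284 in WT and 32029 to 33518 in SCA1 KI, with Dlx5 at 0 in all 6 libraries. The part of these other cells in the Nrgn difference was not tested.

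Of the markers listed for cortical excitatory neurons, some were near 0 in the cerebellum of both genotypes and others were not. Fezf2 was at 0 to 1.2 and Emx1 at 0 to 5.8 normalized counts, and Tbr1 was between 23.2 and 46.3 in all 6 libraries. Neurod6 was at 262 to 325 and Cux2 at 1611 to 1852, and Rorb was at 787 to 1156 in WT and 630 to 675 in SCA1 KI. The summed level of 7 listed genes was 14853 to 19699 in WT and 20726 to 22698 in SCA1 KI, most of it Slc17a7, which granule cells also use, and 1 gene was called lower (Rorb) and 1 higher (Tbr1). In the cortex, 3 of the 7 were called lower in SCA1 KI and 0 higher, beside 10.8% and 4.82% of all genes. The sum of the 7 was 83750 to 85688 in WT and 56187 to 65952 in SCA1 KI. Slc17a7 alone went from 59871 to 62252 in WT to 41176 to 47425 in SCA1 KI, whereas Emx1 overlapped between the genotypes. The part of these cells in the lower cortical Nrgn, Pcp4 and Calm3 was not tested.

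**Figure D2:**
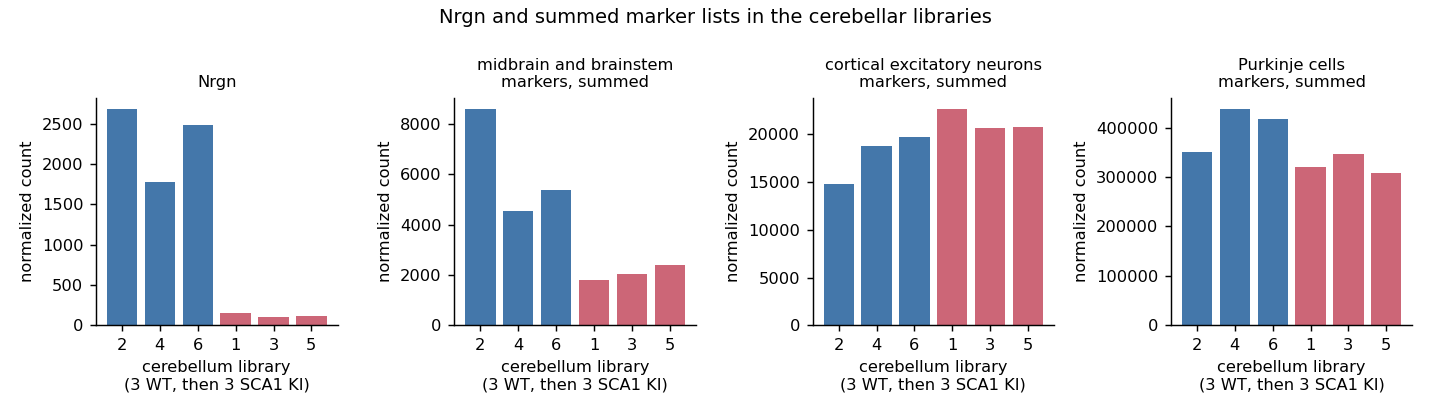
Normalized counts of Nrgn and summed normalized counts of 3 marker lists in the 6 cerebellar libraries (1 bar per library, WT in blue, SCA1 KI in red, each axis from 0). Nrgn and the midbrain and brainstem markers are higher in every WT library, the Purkinje cell markers are 351238 to 438339 in WT and 309095 to 347049 in SCA1 KI, and the cortical excitatory neuron markers are lower in WT (14853 to 19699) than in SCA1 KI (20726 to 22698).

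Gap43 moved the other way. In the cortex it had 8386, 7953 and 9364 normalized counts in WT and 12697, 12413 and 11545 in SCA1 KI. Every SCA1 KI library was above every WT library, and the LFC was 0.51 (SE 0.068), 1.43-fold higher. In the cerebellum the levels were 5607, 6011 and 5889 in WT and 6469, 6045 and 6589 in SCA1 KI, separated by only 34.0 normalized counts between the highest WT and the lowest SCA1 KI library. The LFC there was 0.13 (SE 0.068), and the cortical LFC exceeded it by 0.39 (SE 0.096). WT cortex was 1.47-fold above WT cerebellum (LFC 0.55). Of the 10 midbrain and brainstem markers tested, 3 were called higher in SCA1 KI cortex and 0 lower, beside 4.82% and 10.8% of all genes. These were Tal1 (115 to 125 in WT and 497 to 991 in SCA1 KI), Pou4f1 (2.2 to 6.8 and 217 to 372) and Shox2 (0 and 16.2 to 51.4). The sum of the list was 1547 to 1903 in WT and 2619 to 4265 in SCA1 KI. The part of these cells in the Gap43 difference was not tested.

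Pcp4 was lower in SCA1 KI in both regions and by a like amount. Cortical levels were 8255, 7863 and 8550 normalized counts in WT and 5373, 4899 and 5680 in SCA1 KI. Cerebellar levels were 16176, 17197 and 16436 in WT and 10306, 10266 and 10528 in SCA1 KI. In both regions the genotypes were clearly apart, and in the cerebellum the SCA1 KI libraries lay within 262 normalized counts of each other. The LFC was -0.63 in the cortex (SE 0.060, 1.55-fold lower) and -0.68 in the cerebellum (SE 0.060, 1.60-fold lower), and the regions differed by 0.048 (SE 0.085). Pcp4 was the only member that was clearly higher in WT cerebellum than in WT cortex, 2.02-fold (LFC cortex against cerebellum -1.01, SE 0.060).

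Purkinje cell markers moved with cerebellar Pcp4. All 10 were tested, and 3 were called lower in SCA1 KI cerebellum (Rgs8, Gng13 and Homer3) and 0 higher. Over all genes these shares were 4.44% and 0.917%. Of the 10, 8 had no overlap between the genotypes, all lower, beside 31.8% of all genes without overlap in either direction. The sum of the 10 was 351238 to 438339 normalized counts in WT and 309095 to 347049 in SCA1 KI. Pcp2, which defines these cells, had 9414 to 10742 in WT and 7439 to 8031 in SCA1 KI. The LFC of Pcp4 was of like size in the cortex, but Pcp2 was at 0 to 28.5 there. The cortical value therefore does not measure the part of Purkinje cells. The part of Purkinje cells in the cerebellar difference was not tested.

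The genotypes overlapped for Pcp4l1. In the cortex it had 4064, 3769 and 3426 normalized counts in WT and 3174, 2911 and 5563 in SCA1 KI, and in the cerebellum 4939, 3212 and 3217 in WT and 2418, 2781 and 3260 in SCA1 KI. In each region 1 library was far above the others of its group, SCA1 KI cortex library F and WT cerebellum library 2, the libraries that also stood apart by their markers. Libraries A and E of SCA1 KI cortex lay below all WT cortex libraries, while in the cerebellum library 5 of SCA1 KI lay above libraries 4 and 6 of WT. The LFC was -0.01 (SE 0.22) in the cortex and -0.41 (SE 0.22) in the cerebellum with all libraries, and without those 2 libraries, a choice made after seeing the data, it was -0.30 and -0.20. The cortical value has no settled sign, since it ran from -0.30 to 0.17 on leaving out libraries (0.17 without E, 0.10 without A) and was 0.068 by edgeR. WT cortex and WT cerebellum differed by an LFC of 0.013 (SE 0.22), which ran from -0.091 to 0.22 on leaving out libraries.

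In the cortex, Calm3 had tighter groups than Calm2. It had 68169, 67563 and 68461 normalized counts in WT cortex and 54044, 58795 and 54222 in SCA1 KI cortex, with no overlap and an LFC of -0.29 (SE 0.056), 1.22-fold lower. In the cerebellum the levels were 36443, 36077 and 37838 in WT and 38100, 35807 and 37786 in SCA1 KI, which overlapped almost fully (LFC 0.017, SE 0.056). The LFCs of the regions differed by -0.31 (SE 0.079). WT cortex was 1.85-fold above WT cerebellum (LFC 0.89).

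Calm2 had 70679, 72551 and 76374 normalized counts in WT cortex and 78581, 65990 and 58361 in SCA1 KI cortex. The SCA1 KI libraries lay on both sides of the WT libraries, and the LFC was -0.12 (SE 0.088). It was -0.24 without library A and -0.023 without library F. In the cerebellum it had 44711, 47443 and 45452 in WT and 41937, 43201 and 42506 in SCA1 KI, which did not overlap although the LFC was only -0.11 (SE 0.088). The regions' LFCs differed by -0.016 (SE 0.12), and WT cortex was 1.60-fold above WT cerebellum (LFC 0.67).

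**Figure D3:**
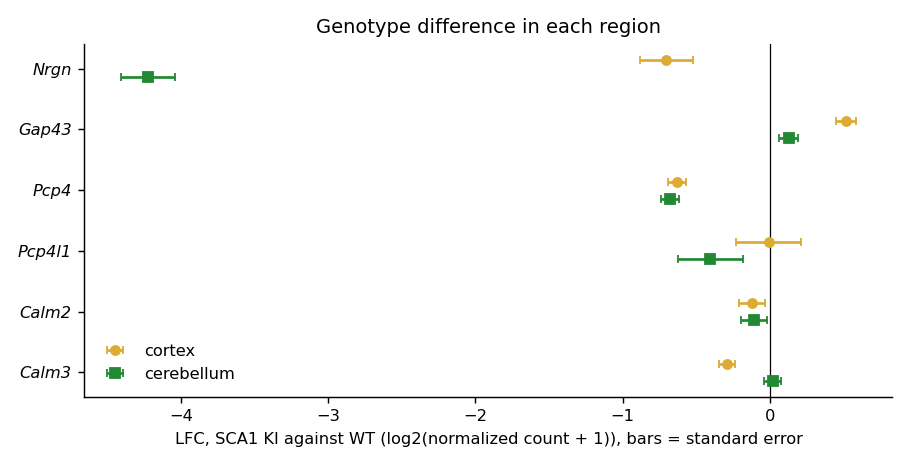
LFC of SCA1 KI against WT for the 6 genes on the log2(normalized count + 1) scale, with bars of 1 standard error, in the cortex (circles) and the cerebellum (squares). Pcp4 has nearly the same LFC in both regions (-0.63 and -0.68), Gap43 is the only gene above 0 in the cortex, and Nrgn in the cerebellum stands at -4.22.

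Set against all genes, 3 of the 6 were called lower in SCA1 KI cortex (Nrgn, Pcp4 and Calm3) (limma adjusted p under 0.05, with an LFC beyond 0.25 in either direction), where 10.8% of the tested genes were, and 1 was called higher (Gap43), where 4.82% were. With length and GC trends removed, the cortical LFC of Calm3 was -0.22, which does not pass that limit. In the cerebellum 2 were called lower (Nrgn and Pcp4), against 4.44% of all genes, and none higher, against 0.917%, Gap43 passing neither the limit on the adjusted p nor that on the LFC there. In each region 4 of the 6 had libraries that did not overlap between the genotypes, against 30.9% of all genes in the cortex and 31.8% in the cerebellum. The LFC differed between the regions for 3 (Nrgn, Gap43 and Calm3), against 8.15% of all genes. Since the 6 were chosen on these contrasts, nothing is read from the comparison.

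Levels of different genes were set side by side per kilobase of merged exons. The order of the genes depends on this choice of length, and no other length was tried. The transcripts used for the windows above are shorter than the merged exons for Calm2, Calm3, Pcp4 and Gap43, but not for Nrgn and Pcp4l1. Genes close in level, such as Nrgn and Calm2 in WT cortex, could therefore change places at other lengths. In WT cortex Nrgn was the most abundant at 53998 ± 2868 normalized counts per kilobase (SD, n = 3), followed by Calm2 at 49899 ± 1979, Calm3 at 28091 ± 189, Pcp4 at 8015 ± 336, Gap43 at 5626 ± 475 and Pcp4l1 at 2380 ± 203. No neighbours in this order overlapped. In SCA1 KI cortex Calm2 (46110 ± 6961) came first, Nrgn (33531 ± 6422) overlapped with it but not with Calm3 (22983 ± 1111) below it, and Gap43 (8022 ± 394) stood above Pcp4 (5183 ± 383) without overlap. In WT cerebellum Pcp4 (16182 ± 517) lay between Calm2 (31267 ± 963) and Calm3 (15182 ± 383), and Nrgn came last (1593 ± 328). In SCA1 KI cerebellum Pcp4 (10104 ± 138) lay below Calm3 (15366 ± 513), and Nrgn was last again at 84.9 ± 20.3. No neighbours overlapped in either cerebellar group.

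The sum of the 4 IQ-motif genes per kilobase was lower in SCA1 KI in both regions relative to Calm2 and Calm3 together. This holds for the sum and not for each gene. In the cortex Gap43 was higher in SCA1 KI (5626 ± 475 in WT, 8022 ± 394 in SCA1 KI). Pcp4l1 overlapped there (2380 ± 203 and 2462 ± 927), and most of the sum was Nrgn. In the cerebellum Gap43 was not lower either (3832 ± 136 and 4181 ± 188). The ratio of the sums was 0.897, 0.874 and 0.921 in WT cortex (libraries B, C and D) and 0.736, 0.689 and 0.709 in SCA1 KI cortex (A, E and F). In the cerebellum it was 0.537, 0.507 and 0.507 in WT (libraries 2, 4 and 6) and 0.360, 0.357 and 0.376 in SCA1 KI (1, 3 and 5). In each region the genotypes did not overlap. Since the members were chosen on these contrasts, nothing is read from the ratio, whose size also depends on the lengths taken. The sum of Calm2 and Calm3 itself was 77989 ± 2079 normalized counts per kilobase in WT cortex, 69093 ± 6856 in SCA1 KI cortex, 46449 ± 866 in WT cerebellum and 44369 ± 179 in SCA1 KI cerebellum.

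The make-up of the IQ-motif sum differed by region and genotype. Nrgn made up 77.1% ± 0.578 of it in WT cortex and 67.8% ± 5.03 in SCA1 KI cortex (SD, n = 3), while the share of Gap43 was 8.03% ± 0.295 and 16.4% ± 1.28. In the cerebellum Pcp4 made up 67.4% ± 2.71 in WT and 62.6% ± 1.08 in SCA1 KI. The share of Nrgn there was 6.63% ± 1.33 in WT and 0.526% ± 0.129 in SCA1 KI, and that of Gap43 ran from 15.1% to 16.5% in WT and from 25.1% to 26.7% in SCA1 KI. Within the sum of Calm2 and Calm3, Calm2 had 64.0% ± 0.844 in WT and 66.5% ± 3.57 in SCA1 KI cortex, and 67.3% ± 1.04 and 65.4% ± 1.08 in the cerebellum. These are shares of RNA per length and not of protein.

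**Figure D4:**
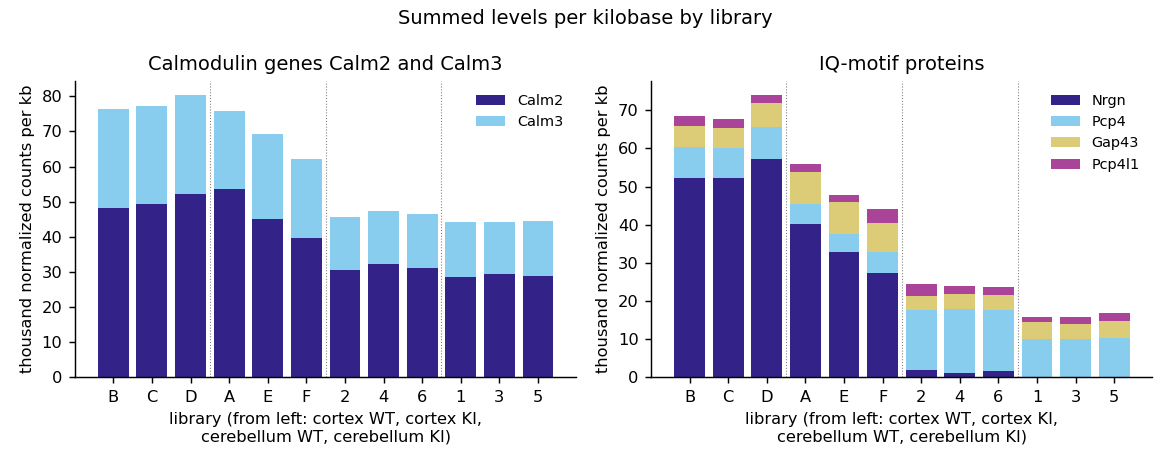
Normalized counts per kilobase of merged exons (axis in units of 1000) of Calm2 and Calm3 (left) and the 4 IQ-motif proteins (right), stacked for each library (bars from 0; dotted lines part the 4 groups). The sum of Calm2 and Calm3 is 76314 to 80316 in WT cortex and 44226 to 47230 over the cerebellum, and Nrgn, which makes up most of the right-hand bars in the cortex, is barely visible in the cerebellum, where Pcp4 makes up most of them.

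Among all genes that averaged 100 or more normalized counts (12663 besides the gene itself), the 3 whose levels followed each member most closely were named by the Pearson correlation over the 12 libraries, which fall into 4 groups, so that r mostly reflects the group means. For Nrgn these were Crhbp (r = 0.997), which encodes the binding protein of corticotropin-releasing hormone, Tac2 (r = 0.995), the precursor of neurokinin B, and Cnih3 (r = 0.995), an auxiliary subunit of AMPA receptors. Crhbp had 31.8 to 53.9 normalized counts in WT cerebellum and only 2 to 3 reads per library in SCA1 KI cerebellum. Cnih3 had 399 to 615 and 135 to 160. For Pcp4 they were Unc13d (r = 0.987), Aldoc (r = 0.980) and Ptprm (r = 0.980). Aldoc, an aldolase of astrocytes and of some Purkinje cells, had means of 64069 in WT and 41080 in SCA1 KI cerebellum.

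For Gap43 the nearest were Gpi1 (r = 0.984), an enzyme of glycolysis, Morf4l2 (r = 0.983), a subunit of chromatin-modifying complexes, and Anapc5 (r = 0.981), a subunit of the anaphase-promoting complex. For Pcp4l1 they were Card10 (r = 0.967), Vash2 (r = 0.941) and Gpx3 (r = 0.934). For Calm2 they were Atp6v1g2 (r = 0.990) and Atp6v0d1 (r = 0.990), both subunits of the vacuolar proton pump, and Gde1 (r = 0.990). For Calm3 they were Pdzd4 (r = 0.997), Sorbs2 (r = 0.997) and Lrrc8b (r = 0.997), of which Sorbs2, an adaptor of the actin cytoskeleton, had means of 11435 in WT and 6883 in SCA1 KI cortex and 2324 and 2404 in the cerebellum.

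The proteins that calmodulin acts on, and others that compete for it or for calcium, were taken as 6 lists of 72 genes in all, of which 69 were in the table and were tested (Calm4, Calm5 and Calml3 were not tested here). Calml4, the calmodulin-like gene of the lists that was tested, had an LFC of 0.65 in the cortex and -0.48 in the cerebellum (SE 0.62 in both) and passed in neither region. In the cortex 35 of the 69 fell in SCA1 KI and 1 rose, beside 10.8% and 4.82% of all genes, and their median LFC was -0.34 against -0.0028 over all genes. In the cerebellum 9 fell and 3 rose, beside 4.44% and 0.917% of all genes, with a median LFC of -0.084 against -0.0049. In 20 of the 69 the LFC differed between the regions, beside 8.15% of all genes. The lists were written with earlier results of these data known, so their direction is not independent evidence. In the cortex 5 of 6 astrocyte markers and 2 of 8 forebrain interneuron markers were also called lower, beside the 3 excitatory markers above, with summed astrocyte markers of 74810 to 88763 in WT and 57387 to 62883 in SCA1 KI and summed interneuron markers of 34769 to 37161 and 25052 to 34308. The part of these cells in the lists was not tested.

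Membrane-bound proteins that sequester calmodulin or are regulated by it behaved unlike each other. Marcks, which binds membrane phospholipids and calmodulin through one basic stretch, was the one gene of all lists that rose in both regions: in the cortex from 10424 to 12038 normalized counts in WT to 12675 to 17550 in SCA1 KI (LFC 0.52, SE 0.11, limma adjusted p = 0.00621), and in the cerebellum from 7584 to 8300 to 12127 to 13440 (LFC 0.73, SE 0.11, limma adjusted p = 0.00193). Basp1, another membrane-bound protein of axon ends, fell in the cerebellum, from 3381, 1374 and 1916 in WT libraries 2, 4 and 6 to 724 to 848 in SCA1 KI (LFC -1.37, SE 0.23, limma adjusted p = 0.00348). Its WT libraries stood in the order 2, 6, 4, as in several summed marker lists, midbrain and brainstem and oligodendrocytes among them. In the cortex Basp1 overlapped between the genotypes (LFC -0.029, SE 0.23). Marcksl1 (LFC -0.51, SE 0.16, limma adjusted p = 0.0477) and Add2 (LFC -0.28, SE 0.088, limma adjusted p = 0.0481) fell in the cortex close to the threshold, and each was lost in 13 of 22 other settings, edgeR among them.

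Of 28 calmodulin-activated enzymes and pumps, 13 fell in the cortex and 0 rose by limma (median LFC -0.35), and 4 fell in the cerebellum and 0 rose (median LFC -0.13). In each region 1 of them was higher at an unadjusted p under 0.05, and 0 rose by edgeR or DESeq2. Camk2a, the kinase subunit concentrated in forebrain spines, fell in both: from 167504 to 188418 normalized counts to 78116 to 89382 in the cortex (LFC -1.12, SE 0.094, limma adjusted p = 1.4e-05) and from 5315 to 6982 to 2871 to 3232 in the cerebellum (2.00-fold lower, SE of the LFC 0.094, limma adjusted p = 6.14e-05). Itpka, which phosphorylates inositol trisphosphate, had the largest LFC of the list in the cortex (-1.39, SE 0.13, limma adjusted p = 2.61e-05). In the cerebellum Itpka was lower without overlap but not called (LFC -0.41, SE 0.13, limma adjusted p = 0.102). Camkk2, a kinase that activates other calmodulin-dependent kinases, fell in the cortex from 17587 to 19297 to 6732 to 7916 (LFC -1.29, SE 0.11, limma adjusted p = 1.6e-05). In the cerebellum Camkk2 overlapped between the genotypes and was not called (LFC -0.27, SE 0.11, limma adjusted p = 0.237). Its relative Camkk1 fell in the cerebellum (LFC -0.48, SE 0.082, limma adjusted p = 0.00452) and in the cortex (LFC -0.62), as did Camk1d (cerebellar LFC -0.46, SE 0.065, limma adjusted p = 0.00124).

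**Figure D5:**
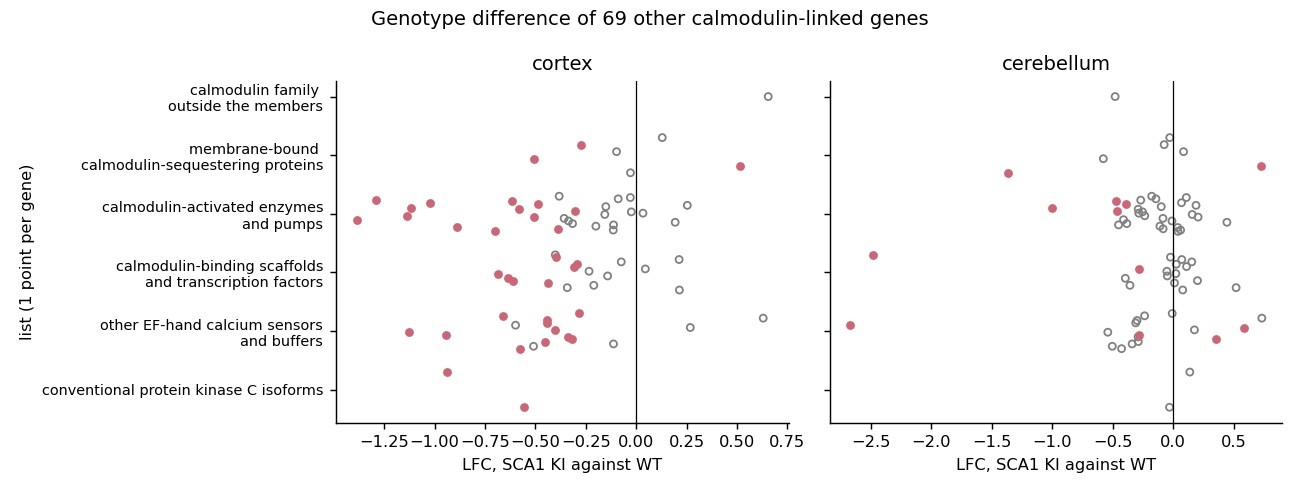
LFC of SCA1 KI against WT of 69 other calmodulin-linked genes in 6 lists (1 point per gene, spread vertically within its list only for legibility), in the cortex (left) and the cerebellum (right, with its own horizontal scale); filled points passed the test and open points did not. In the cortex 35 points passed below 0 and 1 above it, and in the cerebellum 9 passed below 0 and 3 above it.

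Of 16 calmodulin-binding scaffolds and transcription factors, 7 fell in the cortex and 0 rose by limma, and 2 fell in the cerebellum and 0 rose. At an unadjusted p under 0.05, 2 were higher in the cortex and 3 in the cerebellum, and by DESeq2 1 rose in the cerebellum, with 0 in the other region and 0 by edgeR. In the cortex the smallest p were those of Camta2, a calmodulin-binding transcription activator (LFC -0.68, SE 0.077, limma adjusted p = 8.62e-05), and of Iqsec2 (LFC -0.61, SE 0.081) and Iqsec1 (LFC -0.44, SE 0.065), which carry IQ motifs and activate Arf proteins at synapses. In the cerebellum Camkv, a kinase-like protein of synapses that has no kinase activity, fell from 1655, 772 and 1074 normalized counts in WT libraries 2, 4 and 6 to 170 to 247 in SCA1 KI (LFC -2.48, SE 0.21, limma adjusted p = 2.79e-05). Its WT libraries stood in the order 2, 6, 4 too, from which nothing is read. Strn3, a striatin scaffold, fell by 0.28 on the log2 scale (SE 0.058, limma adjusted p = 0.0137), from 8010 to 8776 to 6741 to 7115, a call lost in 4 of 22 other settings.

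Of 16 other EF-hand calcium sensors and buffers, 11 fell in the cortex and 0 rose by limma, with a median LFC of -0.44, and 0 were higher at an unadjusted p under 0.05 or by edgeR or DESeq2. Cabp1, a relative of calmodulin that regulates calcium channels, fell in the cortex (LFC -0.94, SE 0.076, limma adjusted p = 1.13e-05) and less in the cerebellum (LFC -0.28, SE 0.076, limma adjusted p = 0.0486). The cerebellar call of Cabp1 was lost in 14 of 22 other settings, edgeR among them (LFC from -0.30 to -0.11, highest adjusted p = 0.36). The sensors Hpca (LFC -0.58, SE 0.12) and Vsnl1 (LFC -0.45, SE 0.088) fell in the cortex. In the cerebellum 2 fell and 2 rose. Ncald rose there, from 8836 to 9731 to 11217 to 12389 normalized counts (LFC 0.36, SE 0.070, limma adjusted p = 0.00983; lost without library 1), whereas it fell in the cortex, from 28715 to 30405 to 21388 to 25349 (LFC -0.32, SE 0.070, limma adjusted p = 0.00763). Necab1 rose in the cerebellum (LFC 0.59, SE 0.14, limma adjusted p = 0.0317), a call lost without any 1 of libraries 1, 3, 4, 5 and 6, and its relative Necab2 fell, from 586, 217 and 229 in WT libraries 2, 4 and 6 to 34.3 to 58.1 (LFC -2.67, SE 0.33, limma adjusted p = 0.000459). The part of the other cells named above in the lower cerebellar Basp1, Camkv and Necab2 was not tested.

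Of the conventional protein kinase C isoforms, which include kinases that act on the IQ motifs of Nrgn and Gap43, 2 were taken, Prkcb and Prkca. Both fell in the cortex and neither passed in the cerebellum, where 0 fell or rose by limma, edgeR or DESeq2 or at an unadjusted p under 0.05. Prkcb fell from 63037 to 70253 normalized counts in WT cortex to 31082 to 41326 in SCA1 KI cortex (LFC -0.94, SE 0.099, limma adjusted p = 5.64e-05), against 21826 to 26500 and 26560 to 27599 in the cerebellum (LFC 0.14, SE 0.099). Prkca fell in the cortex from 11759 to 13760 to 7106 to 10239 (LFC -0.56, SE 0.11, limma adjusted p = 0.00346). In the cerebellum its LFC was -0.029 (SE 0.11).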

How the data were processed

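Whole cortex and cerebellum of SCA1 KI and WT mice were compared in 12 libraries, 3 biological replicates per group. Poly-adenylated RNA was sequenced as 75-base pairs on a HiSeq 2500. For these reads, STAR (mm10), featureCounts and DESeq2 were run by the authors, in versions and with an annotation and strand setting not given in the sources used here. The signal deposited by the authors is a normalized count, the reads of a gene divided by the size factor of its library. In each library 100% of values were whole multiples of 1 read (tolerance 0.1), so the reads could be recovered. Columns carry region, genotype and a letter or number found in no label.

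Here limma 3.58.1 (R 4.3.3, empirical Bayes with a trend) was fitted to log2(normalized count + 1), 1 mean per group over all 12 libraries, for 15369 of 15759 entries. The pseudocount of 1 understates the LFC of low genes. Adjusted p are Benjamini-Hochberg values over all genes tested; a gene was called when its adjusted p was under 0.05 and its LFC beyond 0.25 in either direction. The members and lists were chosen with earlier results of these data known. A few genes and 1 sequence are not reported here and were left out of the lists and sums. Named were, per list, region and direction, up to 3 called genes with the smallest p, and per member the 3 most correlated genes. Alternatives were other pseudocounts (0.5 and 5), other filters (none, or a mean of 100), separate fits per region, centring on the region median, removal of length and GC trends, edgeR 4.0.16, DESeq2 1.42.0, no LFC limit and leaving out each library. The fits were tested on simulated counts first. Coordinates and transcripts come from GENCODE vM21 (GRCm38), where 15009 of 15758 symbols were found; coding sequences are those of principal transcripts. The 24 symbols turned into dates were left as they were.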

Additional observations from a re-analysis of the deposited data

Results flagged for a closer look

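For 12 of the other calmodulin-linked genes named in the report, the genotype difference itself differed between the regions by the limma interaction term (adjusted p under 0.05 over all genes tested). Values are the LFC in the cortex minus the LFC in the cerebellum. It was negative, that is, the LFC was lower in the cortex, for Prkcb (-1.08, SE 0.14, adjusted p = 0.000884), Camkk2 (-1.02, SE 0.16, adjusted p = 0.0022), Itpka (-0.98, SE 0.19, adjusted p = 0.00646), Iqsec2 (-0.81, SE 0.11, adjusted p = 0.00125), Camta2 (-0.71, SE 0.11, adjusted p = 0.00193), Ncald (-0.68, SE 0.099, adjusted p = 0.00145), Cabp1 (-0.66, SE 0.11, adjusted p = 0.00268) and Iqsec1 (-0.45, SE 0.091, adjusted p = 0.00931).

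It was positive for Camkv (2.08, SE 0.30, adjusted p = 0.00136), Necab2 (2.07, SE 0.47, adjusted p = 0.0167), Basp1 (1.34, SE 0.32, adjusted p = 0.0218) and Strn3 (0.33, SE 0.083, adjusted p = 0.029). Of the 12, Ncald was the one that passed the test in both regions with opposite signs. Region and experiment cannot be told apart in these differences.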

How the results depend on the processing

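Of 503 values of the member LFCs and list counts under alternatives, 481 stayed within the spread between replicates or 1.5 times the count. The sign turned for Pcp4l1 alone among the members, in 6 of 22 settings for the cortical LFC (-0.30 to 0.17) and in 5 of 21 between WT regions (-0.091 to 0.22), neither of which had been called. With length and GC trends removed, the LFC of Pcp4 was -0.74 in the cortex, -0.64 in the cerebellum and -0.94 between WT regions, that of Gap43 0.21 in the cerebellum, that of Calm2 -0.068 in the cerebellum and 0.75 between WT regions, and that of Calm3 -0.22 in the cortex, 0.14 in the cerebellum and 0.92 between WT regions; edgeR gave 0.86 for the last. The listed genes that rose in the cortex, 1 in the report, were 4 with those trends removed, 2 with no LFC limit and 1 to 3 on leaving out a library (3 without A, 2 without B, C or E, and 2 without libraries 2 and F together). Those that rose in the cerebellum, 3 in the report, were 1 to 4 (1 without library 1). Those that fell there, 9 in the report, were 15 with each region on its own, 18 by DESeq2 and 6 to 16 on leaving out a library (14 without 4, 6 without 1, 16 without A). The causes were not tested.

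Of 25 named calls, 19 held in every setting; Add2 and Marcksl1 (cortex) and Cabp1, Strn3, Ncald and Necab1 (cerebellum) were lost in 13, 13, 14, 4, 1 and 5 of 22 settings, Ncald only without library 1 (adjusted p = 0.0616) and Necab1 only on leaving out libraries (highest adjusted p = 0.125). No paired analysis was possible because the columns of the table carry no replicate number of the labels. Nrgn in SCA1 KI cerebellum rests on 122 to 184 reads per library.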

Other observations

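The remaining marker lists are given here as values. Over all tested genes, 4.44% were called lower and 0.917% higher in the cerebellum, and 10.8% and 4.82% in the cortex. In the cerebellum, oligodendrocyte markers had 0 of 6 called by limma in either direction, with 5 lower at an unadjusted p under 0.05, 0 called by edgeR and 2 called lower by DESeq2; their sum was 172669 to 259028 normalized counts in WT and 148143 to 148907 in SCA1 KI. Of 6 microglia markers 1 was called lower (sum 3073 to 4270 in WT and 2840 to 2998 in SCA1 KI). Of 6 astrocyte markers 2 were called lower (sum 166315 to 170015 and 136311 to 139174). Of 4 unipolar brush cell markers 1 was called lower (sum 16771 to 21879 and 16758 to 17550), and of 7 striatum markers 1 (sum 9147 to 10373 and 7760 to 8168). Granule cell, Golgi cell, hippocampus and choroid plexus markers had 0 called by limma in either direction, and 0 were lower at an unadjusted p under 0.05 or by edgeR or DESeq2, while 1 hippocampus marker was higher by each of these. The choroid plexus sum varied from 725 to 72504 over the 6 cerebellar libraries, highest in libraries 5 and 4.

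In the cortex, 5 of the 10 genes listed for Purkinje cells were called lower (Car8, Calb1, Rgs8, Itpr1 and Homer3) and 1 higher (Slc1a6), although Pcp2 was at 0 to 28.5 normalized counts. Of those listed for cerebellar Golgi cells 3 of 4 were called lower, for unipolar brush cells 2 of 4, for striatum 2 of 7, for hippocampus 1 of 6, and for thalamus 1 of 5 with 1 higher. Oligodendrocyte, microglia and choroid plexus markers had 0 called by limma, edgeR or DESeq2 and 0 at an unadjusted p under 0.05, and granule cell markers had 0 called by limma and edgeR, with 1 lower at an unadjusted p under 0.05 and by DESeq2.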
